A study of Mus musculus with 6 samples.

Results

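The B cell receptor is the antigen receptor of B lymphocytes. A membrane immunoglobulin, of which the mu heavy chain encoded by Ighm is the first isotype to be made, binds antigen, and the heterodimer of Cd79a and Cd79b carries the signal inwards through tyrosine motifs that Src-family kinases such as Blk phosphorylate. Coreceptors and scaffolds such as Cd22 and Bank1 set the strength of that signal, and stem cells are not known to depend on the receptor. The genes described here are 8 of its parts and partners, namely Ms4a1, Cd22, Cd79a, Cd79b, Bank1, Blk, Ighm and Fcrla. They were taken as every probe set annotated to exactly 1 of these symbols, which gave 9 probe sets (2 for Ighm, 1 for each other gene) of 14610 tested, 11229 of which carry 1 symbol. The genes were chosen from their log2 differences between the groups on these same 6 arrays, so those differences are given below as descriptions only and were not tested.

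Expression was measured in LKS-Slam marker positive bone marrow cells, a flow-sorted population highly enriched for hematopoietic stem cells. The group labelled Zeb2-KO had 3 arrays of mice with Zeb2 Δ/Δ alleles (fl/fl before induction) and Mx1-Cre, a recombinase driven by an interferon-inducible promoter that is not restricted to stem cells, and the WT group had 3 arrays of C57Bl/6 WT mice, which the labels give neither floxed alleles nor Cre. Mice of both groups were given pIC, which induces interferon, when 6 weeks old and were analysed after a further 8 weeks, at an age of 14 weeks. Each array held the sorted cells of 1 bone marrow sample, and values are log2 of the deposited intensities. LKS usually denotes cells without lineage antigens and with Kit and Sca-1, and such lineage panels usually hold a B cell antigen. The antibodies used are not named in the labels.

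Several facts of the series touch every value below. Zeb2 itself was not lower in the Zeb2-KO-labelled arrays (7.79, 9.13 and 8.96) than in WT (6.58, 7.51 and 7.34), with a difference of 1.48 that did not pass limma's test (adjusted p = 0.581), so every direction rests on the labels. Its 1 probe set checks the deletion only if it lies in the deleted part, which the labels do not give. Of the gate's own markers, Kit lay at 10.14, 10.17 and 10.23 in the Zeb2-KO-labelled arrays and 9.0, 10.06 and 9.89 in WT, and Slamf1, which encodes CD150, at 8.31, 9.01 and 8.30 in the Zeb2-KO-labelled arrays and 5.76, 8.02 and 7.94 in WT. Cd48, which SLAM gates usually exclude, lay at 6.79, 6.86 and 5.72 in the Zeb2-KO-labelled arrays and 7.19, 7.70 and 7.55 in WT, a difference of -1.02 without overlap that was -0.65 with Zeb2-KO replicate 3 left out. Of 12 measured genes of the gate and of stem cells 7 lay lower and 5 higher, none past limma's adjusted threshold (smallest adjusted p = 0.606). The part of cells outside the gate in the members' values was not tested. WT replicate 1 was the lowest array in Kit and Slamf1, whose differences of 0.53 and 1.30 were 0.21 and 0.56 without it, and the mean correlation of that array with the others (0.841) was the lowest of the 6. Ly6a, which encodes Sca-1, was not analysed here. The interquartile range of log2 values, a measure of how widely the values of an array are spread, was 1.83, 2.40 and 2.11 in the Zeb2-KO-labelled arrays and 1.59, 2.03 and 1.77 in WT. Values given below with adjustment for array spread come from a fit that holds this range as a covariate. The widest ranges lay under the Zeb2-KO label and the narrowest in WT, so spread and label are partly confounded. That fit can therefore also take away part of a difference between the groups. Replicate 1 of each group also had raised Y-linked signal, with means over 3 genes of 6.17 in the one labelled Zeb2-KO and 5.13 in WT, against 3.82 to 4.03 in the other arrays. Several results that rest on these arrays are given with and without them.

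Promoters are shown for the members that had one in the RefSeq set, because members lay lower together and Zeb2 is known to bind E-boxes of the form CACCTG. The 4 members with an entry were Cd79a, Cd22, Bank1 and Fcrla. Each window of 300 bases runs from 250 before to 50 after the annotated start in build GRCm38.p6, written 5′ to 3′ on the strand of the gene, with CACCTG or its reverse complement CAGGTG in capitals. They are chr7:24897247-24897546 for Cd79a (plus strand), chr7:30878979-30879278 for Cd22 (minus strand), chr3:136326017-136326316 for Bank1 (minus strand) and chr1:170927534-170927833 for Fcrla (minus strand).
Cd79a: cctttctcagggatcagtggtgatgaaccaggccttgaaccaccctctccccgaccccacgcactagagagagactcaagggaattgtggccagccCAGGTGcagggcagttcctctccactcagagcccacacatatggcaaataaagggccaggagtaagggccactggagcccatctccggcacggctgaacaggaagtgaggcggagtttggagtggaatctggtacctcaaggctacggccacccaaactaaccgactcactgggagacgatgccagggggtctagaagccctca
Cd22: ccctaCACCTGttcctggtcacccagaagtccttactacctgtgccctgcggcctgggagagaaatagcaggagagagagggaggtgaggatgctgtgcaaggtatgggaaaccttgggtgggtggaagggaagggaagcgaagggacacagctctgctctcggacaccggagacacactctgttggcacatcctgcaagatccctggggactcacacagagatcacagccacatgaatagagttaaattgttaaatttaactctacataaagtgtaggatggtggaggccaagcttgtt
Bank1: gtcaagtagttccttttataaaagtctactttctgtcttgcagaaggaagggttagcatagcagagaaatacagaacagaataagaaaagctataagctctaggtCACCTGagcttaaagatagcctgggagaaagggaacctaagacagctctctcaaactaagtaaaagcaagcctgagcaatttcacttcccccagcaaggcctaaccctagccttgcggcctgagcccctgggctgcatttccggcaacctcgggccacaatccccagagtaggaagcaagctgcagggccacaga
Fcrla: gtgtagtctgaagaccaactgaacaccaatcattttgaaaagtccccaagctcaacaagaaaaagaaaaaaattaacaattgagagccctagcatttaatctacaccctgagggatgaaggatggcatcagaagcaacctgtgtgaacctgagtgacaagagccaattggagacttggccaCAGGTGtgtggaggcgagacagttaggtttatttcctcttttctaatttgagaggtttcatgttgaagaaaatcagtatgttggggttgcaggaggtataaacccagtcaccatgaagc
Each of the 4 windows held the 6-letter box once, beginning 154 bases before the start in Cd79a, 245 in Cd22, 145 in Bank1 and 69 in Fcrla. The box was present on either strand in 20.2% of the 32851 promoter windows of the same length. The 5-letter core CACCT, which overlaps the box, was present in 51.9% of windows. The octamer ATGCAAAT (reverse complement ATTTGCAT), known from immunoglobulin promoters, occurred in none of the 4 windows and in 1.74% of all. The Ets core GGAAGT (reverse complement ACTTCC) occurred in the windows of Bank1 and Cd79a and in 23.8% of all. The palindrome of Ebf1 and its relatives, TCCC and GGGA around 2 free bases, occurred in the window of Cd22 and in 0.904% of all. In total 5 motifs were searched. The 4 promoters had been read before the motifs were chosen, and the 6-letter box was picked and capitalised after it had been seen in each of them, so its presence in 4 of 4 is a description and no support for binding by Zeb2. These matches describe letters and do not show binding. The promoters of Ms4a1, Cd79b, Blk and Ighm are not printed.

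Each of the 9 probe sets had a lower mean in the Zeb2-KO-labelled arrays than in WT, by 4.17-fold in Ms4a1 and 3.09-fold in Bank1, although Fcrla turned to higher once the spread of the arrays was adjusted for. The median difference over the 8 genes, with the brighter Ighm probe set, was -0.75 (log2), against -0.089 over all tested probe sets, of which 55.4% lay below 0. Arrays of sorted cells cannot tell apart fewer cells of a type from less RNA per cell, and that holds for each gene below. In 3 of the 9 probe sets the groups did not overlap, all lower in the Zeb2-KO-labelled arrays, where 6.26% of all tested probe sets met the same description. The contrast was used to choose the genes, so nothing is read from that count.

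**Figure D1:**
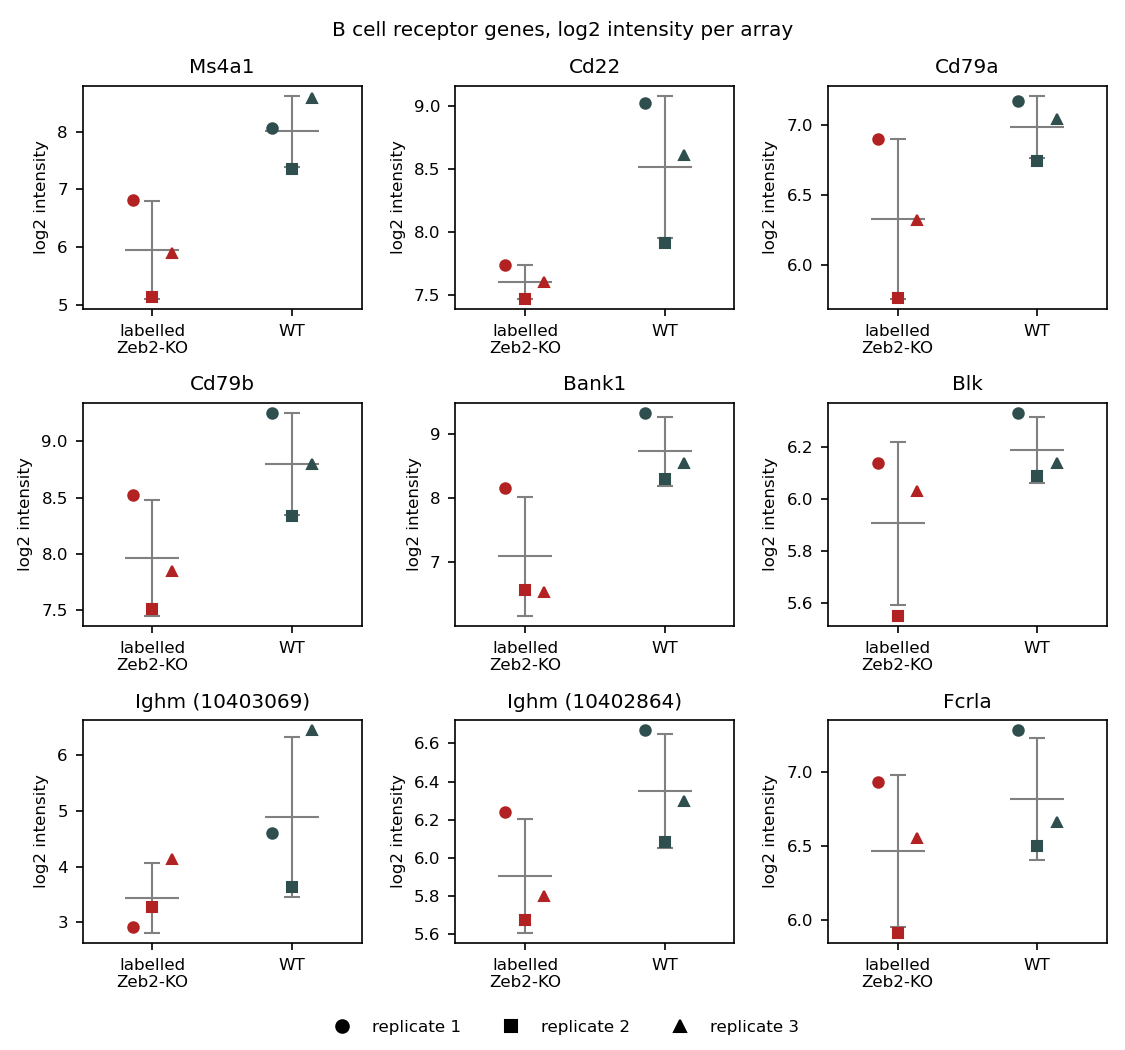
Log2 intensity of each of the 9 probe sets (vertical axes, 1 panel per probe set) in the 3 Zeb2-KO-labelled arrays (red, left) and the 3 WT arrays (dark, right). Marker shapes give the replicate number, and gray bars give mean ± SD. Ms4a1, Cd22 and Bank1 show no overlap between the groups, and WT replicate 2 is the lowest WT array in all 9 panels.

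The surface molecules beside the receptor come first. Ms4a1 encodes CD20, a membrane protein of B cells from the pre-B stage onward and the target of therapeutic anti-CD20 antibodies. Its values were 6.82, 5.13 and 5.89 in the Zeb2-KO-labelled arrays and 8.07, 7.36 and 8.58 in WT. The highest Zeb2-KO-labelled array stood 0.54 below the lowest WT array. Group means were 5.95 ± 0.85 under the Zeb2-KO label and 8.01 ± 0.61 in WT (SD, n = 3 each), a difference of -2.06 or 4.17-fold lower, the 7th lowest difference of 14610. Leaving out any 1 array kept it between -2.50 and -1.65, and with adjustment for array spread it was -1.24.

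Cd22 encodes a sialic acid-binding lectin that recruits the phosphatase Ptpn6 to dampen receptor signalling. It measured 7.74, 7.47 and 7.60 in the Zeb2-KO-labelled arrays and 9.02, 7.91 and 8.61 in WT. The 3 Zeb2-KO-labelled arrays lay within 0.27 of each other while the WT arrays spanned 1.11, and the gap between the groups was 0.17. The means were 7.60 ± 0.14 under the Zeb2-KO label and 8.51 ± 0.56 in WT (SD, n = 3 each), a difference of -0.91. It was -0.66 with WT replicate 1 left out and -0.51 with adjustment for array spread.

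The signalling chains of the receptor overlapped between the groups. Cd79a, which pairs with Cd79b to anchor and signal for membrane immunoglobulin, measured 6.90, 5.76 and 6.32 in the Zeb2-KO-labelled arrays and 7.17, 6.74 and 7.04 in WT. Replicate 1 of the group labelled Zeb2-KO lay above WT replicate 2, so the groups overlapped. Means were 6.32 ± 0.57 under the Zeb2-KO label and 6.99 ± 0.22 in WT (SD, n = 3 each), a difference of -0.66, which was -0.38 with Zeb2-KO replicate 2 left out and -0.14 with adjustment for array spread.

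Cd79b, the other chain, measured 8.52, 7.51 and 7.85 in the Zeb2-KO-labelled arrays and 9.25, 8.34 and 8.80 in WT. The groups overlapped in the same way, through Zeb2-KO replicate 1 and WT replicate 2. Means were 7.96 ± 0.51 under the Zeb2-KO label and 8.80 ± 0.46 in WT (SD, n = 3 each), a difference of -0.84, which ran from -1.12 to -0.61 with 1 array left out and was -0.23 with adjustment for array spread. Cd79a and Cd79b had the same order of the 6 arrays, from WT replicate 1 at the top through WT replicate 3, Zeb2-KO replicate 1, WT replicate 2 and Zeb2-KO replicate 3 to Zeb2-KO replicate 2 at the bottom.

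The heavy chain itself is covered by 2 probe sets that disagree in size. The annotation pairs probe set 10403069 with 6 accessions and probe set 10402864 with 12, and the sets share 1 accession. Probe set 10403069 measured 2.91, 3.27 and 4.13 in the Zeb2-KO-labelled arrays and 4.60, 3.63 and 6.45 in WT, a difference of -1.46. WT replicate 3 stood far above the other arrays, and the difference was -0.68 without it and -2.09 with WT replicate 2 left out. Probe set 10402864 measured 6.24, 5.67 and 5.80 in the Zeb2-KO-labelled arrays and 6.67, 6.08 and 6.30 in WT. Its difference was -0.45, -0.29 with WT replicate 1 left out and -0.09 with adjustment for array spread. The groups overlapped in both. Immunoglobulin probe sets can match related transcripts of the same locus, so the assignment to Ighm is uncertain.

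Among the intracellular partners, Bank1 stood apart from Blk and Fcrla. Bank1 is a scaffold that links Src-family kinases to calcium release after receptor engagement. It measured 8.16, 6.57 and 6.54 in the Zeb2-KO-labelled arrays and 9.32, 8.30 and 8.55 in WT. The groups were separated by 0.13, and replicate 1 of the group labelled Zeb2-KO lay well above its other arrays. Means were 7.09 ± 0.93 under the Zeb2-KO label and 8.72 ± 0.53 in WT (SD, n = 3 each), a difference of -1.63 or 3.09-fold lower, the 19th lowest of 14610. The difference ran from -2.17 to -1.33 with 1 array left out and was -0.80 with adjustment for array spread.

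Blk, a Src-family kinase of the B lineage, measured 6.14, 5.55 and 6.03 in the Zeb2-KO-labelled arrays and 6.33, 6.09 and 6.14 in WT. Apart from Zeb2-KO replicate 2, all arrays lay between 6.03 and 6.33. The difference was -0.28, close to the median of -0.23 over the 7305 dimmer tested probe sets among which Blk falls, and it was -0.10 with Zeb2-KO replicate 2 left out and -0.0066 with adjustment for array spread. Fcrla, an intracellular Fc receptor-like protein of B cells, measured 6.93, 5.91 and 6.55 in the Zeb2-KO-labelled arrays and 7.28, 6.50 and 6.66 in WT. Its groups overlapped by 0.43, the widest overlap among the single-probe-set genes. The difference of -0.35 was -0.073 with Zeb2-KO replicate 2 left out, -0.11 with WT replicate 1 left out and -0.58 with Zeb2-KO replicate 1 left out, and it turned to 0.22 with adjustment for array spread. Ranked from the lowest difference of 14610, Fcrla stood at place 3065 and Blk at place 4423.

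The members shared an array pattern that the choice of genes did not name. WT replicate 1 was the highest array in 7 of 9 probe sets, WT replicate 2 the lowest WT array in 9 of 9, Zeb2-KO replicate 1 the highest of its group in 8 of 9 and Zeb2-KO replicate 2 the lowest of all in 7 of 9. The shares of all tested probe sets with these places were not measured. Genes chosen for lower values under the Zeb2-KO label more readily have a WT array highest and a Zeb2-KO-labelled array lowest. Nothing is read from these counts. The mean of the 8 genes, each centred on its own mean over the arrays, was 0.083, -0.90 and -0.53 in the Zeb2-KO-labelled arrays and 0.79, 0.067 and 0.49 in WT. Zeb2-KO replicate 1 and WT replicate 2 were thus nearly level. That order, from high to low, was exactly the order of the arrays from the narrowest to the widest spread of values. Cd79a, Cd79b and Ighm probe set 10402864, 3 of the 9 probe sets, each had their arrays in that order, as did 3.41% of all tested probe sets. It puts 2 WT arrays at the top and 2 Zeb2-KO-labelled arrays at the bottom, so genes chosen for lower values under the Zeb2-KO label meet it more readily, and nothing is read from that count. With adjustment for array spread 7 of the 8 genes still lay lower, with a median difference of -0.19. As spread and label are partly confounded, their parts in the differences cannot be told apart. What the spread of an array itself reflects was not tested. The pattern was not particular to the members. Over the other B cell surface genes the centred mean was 0.78 in WT replicate 1 and -0.76 in Zeb2-KO replicate 2. Over the receptor signal transduction genes it was -0.11 and 0.035 in these arrays.

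**Figure D2:**
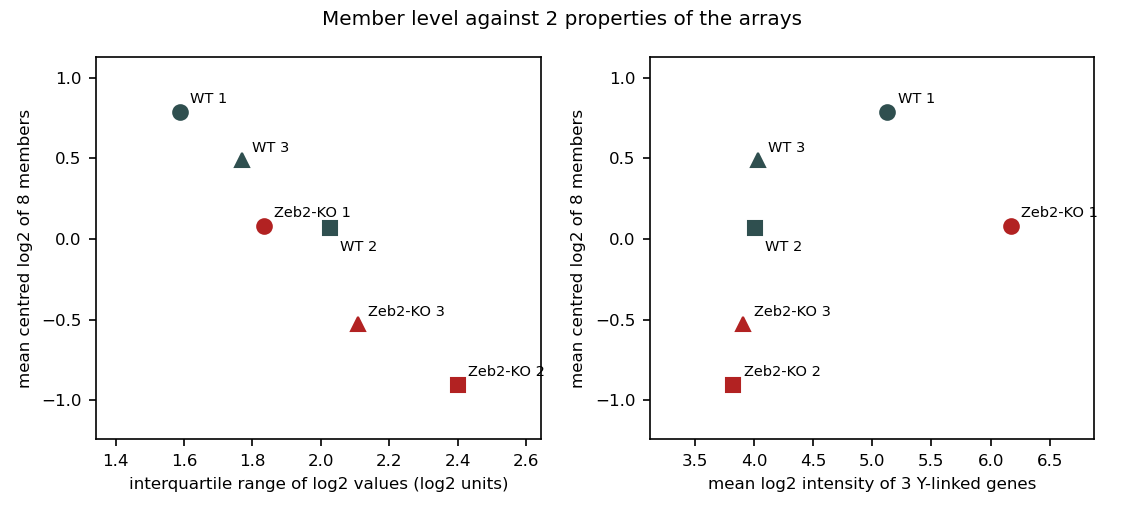
Mean centred log2 level of the 8 genes in each array (vertical axis) against the interquartile range of the array (left, log2 units) and the mean log2 intensity of 3 Y-linked genes (right), with Zeb2-KO-labelled arrays in red and WT in dark. The level falls from 0.79 in WT replicate 1 to -0.90 in Zeb2-KO replicate 2 as the spread widens. Replicate 1 of each group, at the right of the right panel, is the highest array of its group.

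Without both arrays of raised Y-linked signal the median difference of the 8 genes was -0.79, and all 8 lay lower. Leaving out single arrays gave medians between -0.96 and -0.50, the smallest with Zeb2-KO replicate 2 left out and -0.59 with WT replicate 1 left out, with all 8 genes lower each time. Quantile normalization, which gave every array the same distribution over all 20220 probe sets, gave -2.13 for Ms4a1, -1.71 for Bank1, -1.07 for Cd22, -0.24 for Blk and -0.41 for Fcrla. The spread left over the 14610 tested probe sets after it was not measured.

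**Figure D3:**
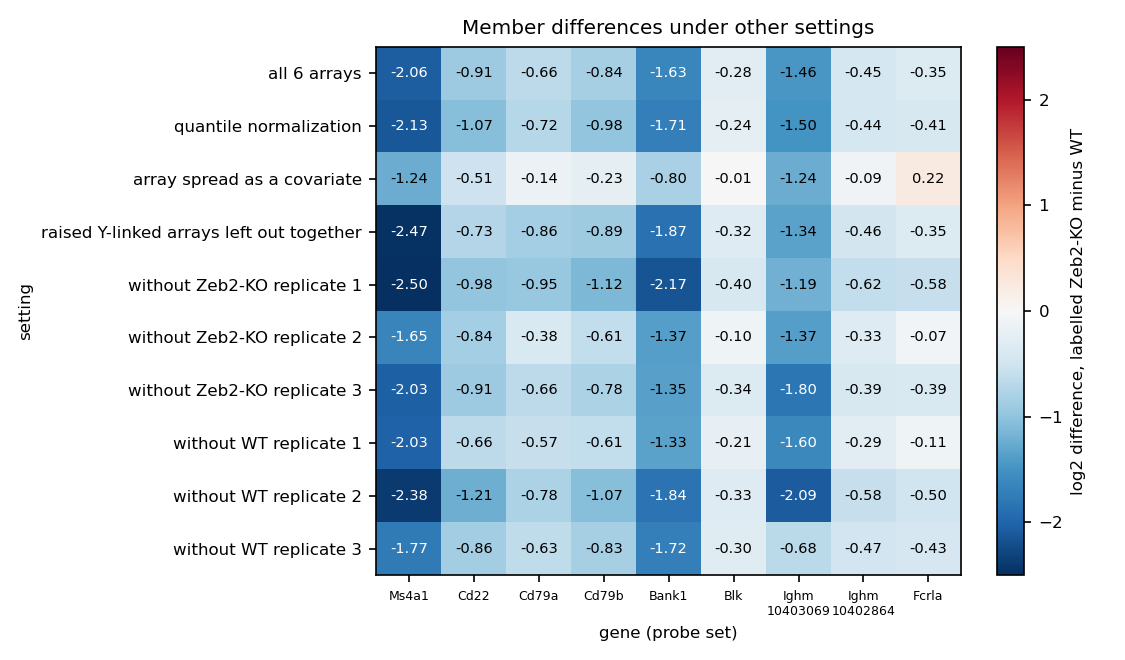
Log2 difference, Zeb2-KO-labelled arrays minus WT, for each of the 9 probe sets (columns) under each setting (rows). Blue marks lower values in the Zeb2-KO-labelled arrays. The differences of Ms4a1 and Bank1 are below -0.8 in each row shown, whereas Fcrla turns to 0.22 with adjustment for array spread.

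Genes that carry the receptor's signal lay on both sides of 0. Of 34 such genes 22 were measured, 9 lower and 13 higher, with a median difference of 0.075 that turned to -0.016 with quantile normalization, -0.14 with adjustment for array spread and -0.044 with WT replicate 1 left out. None passed limma's test over all 14610 probe sets in either direction (smallest adjusted p = 0.602), where 0.0137% of all tested probe sets passed, all of them higher. At an unadjusted p under 0.05 there were 2 lower and 2 higher, where 1.33% of all tested probe sets were lower and 5.69% higher. Btk, the kinase that activates phospholipase C after receptor engagement, measured 7.39, 8.40 and 8.49 in the Zeb2-KO-labelled arrays and 6.60, 7.24 and 6.67 in WT, a difference of 1.25. The Zeb2-KO-labelled arrays were all higher, in the opposite direction to the members. Blnk, the adaptor that joins Btk to its substrate, lay at -0.59, and Cr2, a complement receptor of B cells, at -0.82. Cd81, a tetraspanin, lay at -0.19, Ifitm1 at 0.31 in its brighter probe set and the kinase Fyn at 0.052. The last 3 changed sign with at least 1 array left out. Blnk was -0.32 with Zeb2-KO replicate 2 left out, larger with Zeb2-KO replicate 3 left out and -0.38 with WT replicate 3 left out, and Cr2 was -0.49 with Zeb2-KO replicate 2 left out and -0.48 with WT replicate 1 left out. Lyn, Syk and Plcg2 were not analysed here.

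Negative regulators were also mixed. Of 21 inhibitors of the receptor 13 were measured, 7 lower and 6 higher, with a median of -0.25 that turned to 0.32 over the 8 genes left without dim probe sets and was -0.092 without both arrays of raised Y-linked signal, -0.14 with WT replicate 1 left out and -0.13 with Zeb2-KO replicate 3 left out. The whole table differed by brightness too, with a median of 0.18 over the brighter tested probe sets and -0.23 over the dimmer ones. None passed limma's adjusted threshold (smallest adjusted p = 0.673), with 1 lower and 0 higher at an unadjusted p under 0.05. At that unadjusted p 1.33% of all tested probe sets were lower and 5.69% higher. Ptpn6, the phosphatase that Cd22 recruits, measured 8.87, 8.74 and 8.87 in the Zeb2-KO-labelled arrays and 9.68, 9.51 and 9.25 in WT, a difference of -0.65 without overlap. The inhibitory Fc receptor Fcgr2b lay at -0.37, the coreceptors Cd72 and Siglecg at -0.25 and -0.34, Pirb at -0.33 and Lair1 at 0.49. Without both arrays of raised Y-linked signal Cd72 was -0.092 and Pirb -0.11.

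Other genes of the B cell surface were all lower in the fit without covariates. Of 20 listed 15 were measured, with a median of -0.50 and none past the adjusted threshold of limma (smallest adjusted p = 0.673, 1 at an unadjusted p under 0.05). At that unadjusted p 1.33% of all tested probe sets were lower. Lower were 12 of the 15 with WT replicate 1 left out, 14 without both arrays of raised Y-linked signal and 7 with adjustment for array spread. Their median was 0.030 with adjustment for array spread, -0.30 with Zeb2-KO replicate 2 left out, -0.33 with WT replicate 1 left out and -0.77 with WT replicate 2 left out. Cd40, a receptor for T cell help, lay at -0.42 and the survival receptor Tnfrsf13c at -0.48. The chemokine receptor Cxcr5 lay at -0.50, but that difference rested on WT replicate 1 and turned to 0.18 with it left out and 0.082 without both arrays of raised Y-linked signal. Fcer2a, the low-affinity IgE receptor, lay at -1.04 and Fcmr, the IgM Fc receptor, at -0.77, while Cd24a, which many marrow cells carry, lay at -0.11. With adjustment for array spread Fcer2a turned to 0.50, and with Zeb2-KO replicate 2 left out it was -0.44. In the transcription factors of the lineage 12 of 13 measured genes lay lower (median -0.56, -0.28 with Zeb2-KO replicate 2 left out, -0.35 with WT replicate 1 left out, -0.071 with adjustment for array spread), among them Ebf1 (-0.61), Pax5 (-1.10) and Pou2af1 (-0.87). Ebf1 was -0.23 with Zeb2-KO replicate 2 left out and -0.38 with WT replicate 1 left out, and Pax5 was -0.69 with Zeb2-KO replicate 2 left out and -0.53 with WT replicate 3 left out. None of these factors passed limma's adjusted threshold (smallest adjusted p = 0.656, with 3 lower and 0 higher at an unadjusted p under 0.05). At that unadjusted p 1.33% of all tested probe sets were lower and 5.69% higher. The lists were chosen with earlier results of these data known, so nothing is read from these counts.

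**Figure D4:**
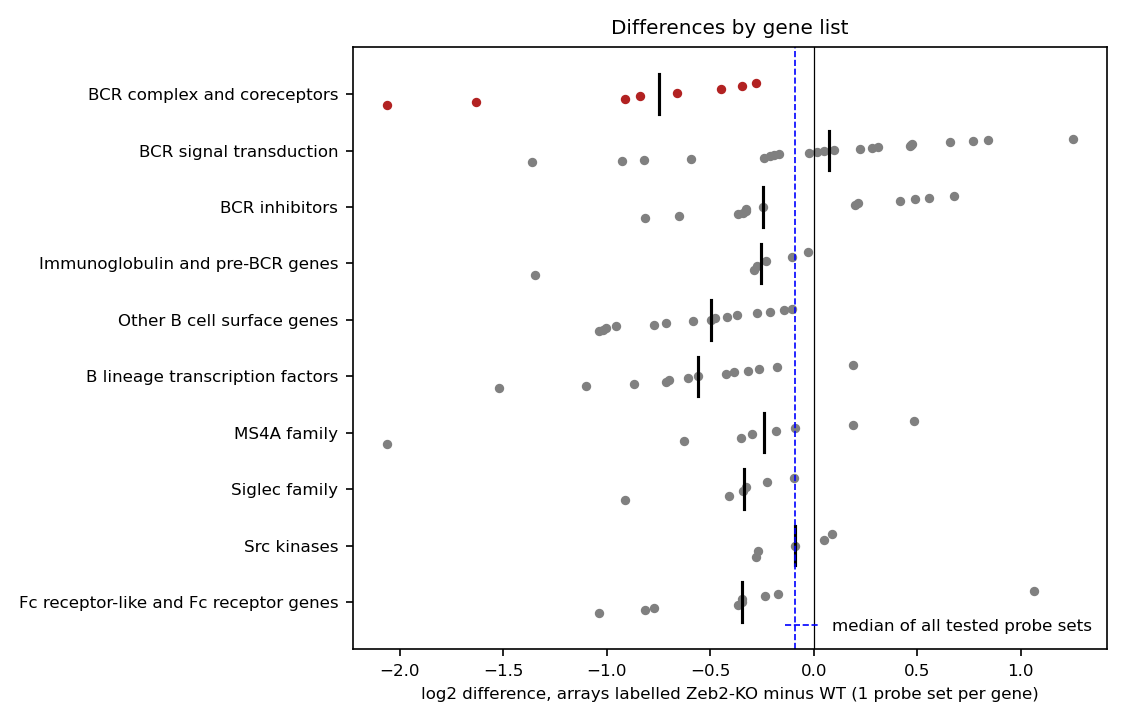
Log2 difference, Zeb2-KO-labelled arrays minus WT, of each measured gene (points, 1 probe set per gene) in the genes described here (red) and in 9 related lists (gray). Black bars give list medians, and the dashed line gives the median of all tested probe sets (-0.089). The 8 members have a median of -0.75, whereas receptor signal transduction genes lie on both sides of 0 with a median of 0.075.

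Immunoglobulin and pre-receptor genes were covered thinly, with 6 of 21 measured. All 6 lay lower in the fit without covariates (none past limma's adjusted threshold, smallest adjusted p = 0.656, 1 at an unadjusted p under 0.05), but 4 did with WT replicate 1 left out and 3 with adjustment for array spread. At that unadjusted p 1.33% of all tested probe sets were lower. The median of the 6 genes was -0.25, -0.036 with adjustment for array spread, -0.10 with WT replicate 1 left out, -0.40 with WT replicate 3 left out and -0.11 over the 3 genes left without dim probe sets. Igha, the IgA heavy chain, measured 6.24, 5.81 and 6.46 in the Zeb2-KO-labelled arrays and 8.70, 6.96 and 6.88 in WT in its brighter probe set, a difference of -1.34. WT replicate 1 was far above the rest, and the difference was -0.75 without it. The groups did not overlap. Of the surrogate light chain genes, which stand in for a light chain in pre-B cells, Vpreb1 lay at -0.11, Vpreb2 at -0.028 and Vpreb3 at -0.29. Vpreb1 measured 5.95, 7.52 and 7.09 in the Zeb2-KO-labelled arrays and 8.62, 6.39 and 5.87 in WT, and its difference turned to 0.72 with WT replicate 1 left out and 1.17 without both arrays of raised Y-linked signal. Vpreb2 turned to 0.033 and Vpreb3 was -0.11 with WT replicate 1 left out. Jchain and Mzb1, genes of antibody-secreting cells, lay at -0.27 and -0.23, and Jchain was -0.094 with WT replicate 1 left out.

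Relatives of the members in the same gene families lay mostly lower, with some higher. Counted with the members, 6 of 8 MS4A, 6 of 6 Siglec, 3 of 5 Src-family and 8 of 9 Fc receptor genes lay lower. Of all tested probe sets 55.4% lay below 0. Among the 7 other MS4A family genes measured, Tmem176a lay at 0.19 and Tmem176b at 0.49, while Ms4a4c lay at -0.35, Ms4a6b at -0.089, Ms4a6c at -0.63, Ms4a10 at -0.30 and Ms4a15 at -0.18. Among the other Siglecs Cd33 lay at -0.097, Mag at -0.41, Siglecg at -0.34, Siglech at -0.33 and Siglec15 at -0.23. Of the Src-family kinases other than Blk, Fgr lay at -0.27, Src at -0.089, Fyn at 0.052 and Yes1 at 0.091. Of the genes listed with Fcrla, its neighbour Fcrlb lay at -0.35, Fcrl1 at -0.82 and Fcamr at -0.23. Fcgr2b, Fcer2a and Fcmr of the same list lay at -0.37, -1.04 and -0.77. Among the other Fc receptors of that list Fcer1a, a chain of the high-affinity IgE receptor, lay at 1.07, a difference set by Zeb2-KO replicate 2 that was 0.10 with it left out, and Fcer1g, another of its chains, at -0.17. Fyn, Src, Yes1, Cd33, Ms4a6b, Ms4a15, Tmem176a and Fcer1g changed sign with at least 1 array left out. None of these relatives passed limma's adjusted threshold (smallest adjusted p = 0.673), and no difference between a member and a relative was tested.

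Genes next to the members on the chromosome were looked up in the RefSeq order of protein-coding genes, with the nearest and next nearest on each side, for 7 members (Ighm was not looked up). Ms4a1 and Cd79b had no neighbour measured here. Of the neighbours 13 were measured, 10 of them lower (76.9%), with a median difference of -0.35 and a range from -0.54 to 0.48. As 9 of the 13 were among the dimmer tested probe sets, of which 74.3% lay below 0, that share is near the background. Both measured neighbours of Bank1 lay higher, Ppp3ca at 0.48 and Emcn at 0.48, beside a difference of -1.63 for Bank1. Around Cd22 the 4 neighbours Ffar3, Ffar1, Mag and Hamp2 lay between -0.54 and -0.36, nearer to 0 than Cd22 (-0.91).

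The genes with the most similar profiles over the 6 arrays were ranked by the root mean square distance between their centred log2 profile and that of the 8 members' mean, over 11220 probe sets of other genes. The nearest were Olfr118 (distance 0.085), Mir669c (0.11), Lbh (0.11), Cd74 (0.12), S1pr1 (0.16), Fcmr (0.17), Gm10100 (0.17) and Pou2af1 (0.17), against a median distance of 0.685. Cd74, the MHC class II invariant chain, measured 9.22, 8.22 and 8.34 in the Zeb2-KO-labelled arrays and 9.80, 9.31 and 9.59 in WT. It kept the order seen in Cd79a and Cd79b except that WT replicate 2 lay above Zeb2-KO replicate 1. A member is part of that mean, which shortens its own distance, so each was also set against the mean of the other 7, a measure chosen after seeing the data. By it Cd79b stood at 0.077 with 0 probe sets of other genes nearer, and Ms4a1 at 0.769 with 7363 nearer.

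Markers of other cells that a marrow sort could hold lay in several directions. Beside the counts below, 55.4% of all tested probe sets lay below 0, 74.3% of the dimmer and 36.5% of the brighter ones. The summed intensity of the 8 members ran from 702 to 1368 in the Zeb2-KO-labelled arrays and from 1377 to 2520 in WT. Monocyte and dendritic cell markers lay lower in 9 of 12 measured genes (sums of 2499 to 3396 under the Zeb2-KO label, 3156 to 4792 in WT). The brightest of them were Cd74 and the MHC class II genes H2-Aa and H2-Ab1, while Cd68 (0.086), Lyz2 (0.40) and Flt3 (0.69) lay higher. Plasmacytoid dendritic cell markers lay lower in 4 of 4 (455 to 563 under the Zeb2-KO label, 563 to 759 in WT). B cells share some genes of both lists. Plasma cell markers lay lower in 5 of 6 (320 to 418 under the Zeb2-KO label, 365 to 475 in WT). Without dim probe sets only Xbp1 was left of them, at 0.027, so nothing is read from that count. T cell markers lay lower in 2 of 4 (452 to 735 under the Zeb2-KO label, 356 to 498 in WT) and NK cell markers in 3 of 5 (206 to 577 under the Zeb2-KO label, 192 to 233 in WT). Each sum follows its brightest genes. The brightest T cell marker was Lat (0.63). The brightest NK cell marker was Nkg7, at 1.12 and at 0.60 with Zeb2-KO replicate 2 left out. Granulocyte markers lay lower in 3 of 6 (476 to 1473 under the Zeb2-KO label, 392 to 436 in WT). The top of that range rested on S100a9 in Zeb2-KO replicate 1 (10.16). The difference of S100a9 was 1.42, and 0.54 without both arrays of raised Y-linked signal. Erythroid markers lay higher in 6 of 7 (3110 to 3524 under the Zeb2-KO label, 1055 to 1455 in WT) and megakaryocyte and platelet markers in 10 of 11 (3639 to 6413 under the Zeb2-KO label, 1241 to 2175 in WT). Car2 (1.72) was the brightest erythroid marker. The erythroid and megakaryocyte medians were 0.76 and 0.79. They were 1.04 and 1.07 without both arrays of raised Y-linked signal, and 0.53 and 0.56 with adjustment for array spread. No gene of the marker lists in this paragraph passed limma's adjusted threshold (smallest adjusted p = 0.333). An array reports no detection call here, so no marker can be said to be at 0, and the part of these cells in the members' values was not tested. Ptprc, which encodes CD45 and its B cell form B220, lay at 10.00, 9.50 and 9.87 in the Zeb2-KO-labelled arrays and 10.66, 10.53 and 10.43 in WT, a difference of -0.75 without overlap.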

How the data were processed

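Per the labels' protocols, RNA of the sorted cells was amplified, biotin-labelled and read on Affymetrix arrays, 1 for each sample. The authors deposited linear intensity values by probe set, made with RMA per the submitters' processing notes. Neither the RMA version nor later scaling is given in the sources used here. Log2 was taken because values of this range are not on a log scale. The 6 columns carry the sample names, and groups come from the titles. Of 20220 probe sets, 5610 with identifiers below the first annotated one were left out as a control block. Of the 14610 tested, 11229 carry 1 symbol, 766 several and 2615 none in the platform annotation, and 11184 of the first were found in a RefSeq gene table (GRCm38.p6), used for names and neighbours.

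limma 3.58.1 (R 4.3.3, lmFit and eBayes) compared 3 Zeb2-KO-labelled arrays with 3 WT arrays, without covariates, adjusting p over the 14610 by Benjamini-Hochberg, with calls at 0.05. Differences are Zeb2-KO-labelled arrays minus WT. Lists use 1 probe set per gene, that with the highest mean. The members and lists were chosen with earlier results of these data known. Named genes are the members, the first measured genes of each list in written order, Zeb2 and the 8 nearest profiles. Genes named for their place (gate, neighbours, families) and the rest were chosen after their values were seen. The fit was tested on simulated data. The labels call the samples biological replicates. Array values carry no read depth, and 3 arrays per group limit the precision. Background correction could not be varied without scanner files, and no slide or scan was used as a batch.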

Additional observations from a re-analysis of the deposited data

How the results depend on the processing

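All 8 member genes lay lower under each setting that gave a value for all of them, except 7 of 8 with the array spread (interquartile range) as a covariate. The replicate block, the included control block and the trended prior cannot change a difference, so they add nothing to that statement. With that covariate the differences were -1.24 (Ms4a1), -0.80 (Bank1), -0.14 (Cd79a), -0.23 (Cd79b), -0.0066 (Blk) and -0.088 (Ighm probe set 10402864), Fcrla turned to 0.22, and the members' median was -0.19. The medians of receptor signal transduction, inhibitors, other surface genes and transcription factors were then -0.14, -0.13, 0.030 and -0.071. With 1 array left out the differences ran from -2.50 to -1.65 (Ms4a1), -1.21 to -0.66 (Cd22), -0.95 to -0.38 (Cd79a), -1.12 to -0.61 (Cd79b), -2.17 to -1.33 (Bank1), -0.40 to -0.10 (Blk), -2.09 to -0.68 and -0.62 to -0.29 (Ighm probe sets 10403069 and 10402864) and -0.58 to -0.073 (Fcrla), and the members' median from -0.96 to -0.50. The medians ran from -0.044 to 0.30 for signal transduction, -0.37 to -0.13 for inhibitors, -0.40 to -0.10 for immunoglobulin genes, -0.77 to -0.30 for other surface genes and -0.72 to -0.28 for transcription factors. Transcription factors called ran from 0 to 1 (Ikzf3, without WT replicate 2).

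Quantile normalization gave a signal transduction median of -0.016. Without dim probe sets that median was 0.31 and the inhibitors' 0.32, over the 15 and 8 genes left. The median over all probe sets left was then 0.18. Without both arrays of raised Y-linked signal the inhibitors' median was -0.092. The 2 probe sets called over the whole table became 1 with the array spread as a covariate, without dim probe sets or without both raised Y-linked arrays, 0 with the replicate block and 978 with array weights, and ran from 2 to 18 with 1 array left out. Array weights also called 3 signal transduction genes, 1 other surface gene and 3 transcription factors. The weights were 0.38, 0.65 and 8.22 in the Zeb2-KO-labelled arrays and 0.46, 0.56 and 1.89 in WT. Zeb2-KO replicate 3 thus dominated its group in that fit, and nothing is read from its calls. At an unadjusted p under 0.05 lay 1025 probe sets, 2595 with the replicate block, 4796 with array weights, 576 without dim probe sets and 537 to 1659 with 1 array left out. Same-numbered arrays deviated together with correlations of 0.36, 0.41 and 0.047, against -0.38 to 0.030 between arrays of unlike number. The labels give no pairing or batch, so the main fit held none. Whether same-numbered arrays share a batch was not tested. The block leaves the differences as they are and called no gene of any list. The cause of these changes was not tested. With array weights Blk was -0.16 and Fcrla -0.21, and the immunoglobulin median was -0.11 over the 3 genes left without dim probe sets and -0.036 under the fit that holds array spread. Including the control block or using a trended prior changes only the variance estimates. Member differences and list medians were therefore the same by construction. With 3 arrays a group, differences as small as those of Blk and Fcrla lie within the spread between arrays.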

Other observations

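Among the genes of the lists, a few were far higher in WT replicate 1, or in WT replicates 1 and 3, than in the other arrays. The B cell chemokine receptor Cxcr5 measured 5.05, 4.71 and 4.78 in the Zeb2-KO-labelled arrays and 6.71, 4.54 and 4.78 in WT. Igha, in its other probe set, measured 6.10, 5.72 and 5.99 under the Zeb2-KO label and 8.60, 6.36 and 6.87 in WT. Ikzf3, a B lineage zinc finger factor, was high in WT replicates 1 and 3 and near the Zeb2-KO-labelled arrays in WT replicate 2, with 5.37, 5.14 and 5.41 under the Zeb2-KO label and 7.28, 5.22 and 7.98 in WT. These genes were chosen after their values were seen.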
